A study of Mus musculus with 10 samples.

Results

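Collagens are the main structural proteins of the extracellular matrix, and each gene encodes a chain that winds with others into a rope-like helix. Fibrillar collagens such as types I and III form the tensile fibers laid down mainly by fibroblasts, whereas type IV collagen forms the sheet-like network of basement membranes, which in the lung underlies both the alveolar epithelium and the capillary endothelium. Type IV chains assemble in fixed combinations, the Col4a1 and Col4a2 chains in nearly all basement membranes and the Col4a3, Col4a4, Col4a5 and Col4a6 chains in restricted ones, and the genes lie head to head in pairs. The remaining classes make beaded filaments, anchor or decorate fibrils, span the cell membrane, or, as types XV and XVIII, sit at basement membranes.

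The collagen genes were taken as every gene of the count table whose symbol is Col, a number, the letter a and a number. This gave 44 genes out of 39017, of which 11 are fibrillar, 6 belong to the type IV basement membrane network and 27 to other classes. They were measured by RNA sequencing in 10 libraries of lung tumors from C57BL/6 mice, 5 labelled Control and 5 labelled Glut1-KO. All mice of both groups were KP mice, which carry, among other alleles, p53 Fl/Fl. The Glut1-KO group was homozygous fl/fl at Glut1 (KPG1 mice), whereas the labels call the controls heterozygous fl/wt, and the design text calls them Glut1-WT. Tumors were started by an adenovirus with Cre under the CC10 promoter, active in club cells of the airways, and were dissected 20 weeks and 1 day later. RNA came from the fraction left after magnetic removal of CD45+ immune cells, so it pools tumor cells with endothelial cells, fibroblasts and other stroma in which the virus need not have acted. In such bulk RNA, fewer cells of a type and less RNA per cell cannot be told apart. All 5 controls were male, and of the libraries labelled Glut1-KO numbers 1 to 3 were female and 4 and 5 male.

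Library totals ran from 35250991 to 49760462 counts. Slc2a1, the gene of Glut1, was counted over its whole length and checks the labels only in part. It stood at 73.2 to 118 CPM (counts scaled to library size) in controls, at 60.3, 42.5 and 34.6 CPM in the female libraries labelled Glut1-KO and at 92.4 and 103 CPM in the male ones, within the control range (exact permutation test, 2-sided, p = 0.0952 over all libraries and 0.81 among males). Glut1-KO below therefore stands for the label. Numbers in the deposited names are shared within groups (2 numbers over the controls, 4 over the Glut1-KO libraries), and no label says whether a number is a mouse, so p-values may measure technical spread in part. Both male Glut1-KO libraries carry the same number, and each female one has its own, so results among males may rest on a single Glut1-KO source. Ptprc, which encodes CD45, was low in all libraries, at 2.30 to 3.26 CPM in controls and 5.05 to 10.1 CPM in Glut1-KO.

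Levels are given as RPKM, here TMM-scaled CPM per kilobase of the longest coding transcript, so that genes can be set side by side. Of the 44 collagen genes, 30 had enough counts to be tested. None of them was called at a Benjamini-Hochberg adjusted p below 0.05 in limma or in edgeR's quasi-likelihood test, where over all 15922 tested genes the share called was also 0%. DESeq2 called 2 of them, against 1.32% of all tested genes. At an unadjusted p below 0.05 there were 2 collagen genes with higher levels in Glut1-KO, against 3.66% of all tested genes, and 0 with lower levels, against 4.02%. These 2, Col4a1 and Col4a2, were also the tested collagen genes whose groups did not overlap, which was so in the higher direction for 0.798% and in the lower direction for 1.06% of tested genes. Estimates were above 0 for 11 collagen genes and below 0 for 19, with a median log2 difference of -0.20, against a median of 0 over all tested genes.

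The 2 genes share a start region on chromosome 8. In the annotation (GENCODE M21, build GRCm38, which is mm10), Col4a1 runs on the minus strand (chr8:11198423-11312826) and Col4a2 on the plus strand (chr8:11312805-11449287), and their first exons overlap by 22 bases. The window around this overlap and a window just beside it are shown because the members that stand apart in these data begin here. They are plus-strand sequences from the RefSeq promoter table (GRCm38.p6). In the first, at chr8:11312801-11312830, capitals mark the overlap. In the second, at chr8:11312781-11312810, capitals mark CCCTCCCC, the letters searched on both strands.
Col4a1 and Col4a2 starts: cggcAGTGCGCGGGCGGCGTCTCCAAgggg
Col4a1 and Col4a2, motif beside the starts: ttggcgctgccCCCTCCCCtcggcagtgcg
Of the 44 genes, 35 had windows of 300 bases in that table, each reaching from 250 bases before to 50 after a start. Of these, 10 (28.6%) held CCCTCCCC on either strand in any of their windows, against 12% of all 27025 genes with a window. A gene with more windows has more chances to match, and the number of windows per gene was not matched. The matches of Col4a1 and Col4a2 are the same site read on opposite strands, so 1 site counts for 2 of the 10 genes. The GC box GGGCGG was held by 22 of 35 (62.9%) against 38.2% of all, the CCAAT box letters CCAAT by 13 (37.1%) against 41.1%, and TATAAA by 5 (14.3%) against 15.7%. Col6a1, Col6a2 and Col1a2 were among the genes with CCCTCCCC. The windows of Col6a1 and Col1a2 are shown on each gene's own strand, since their levels vary widely between libraries (chr10:76726064-76726093 minus and chr6:4505541-4505570 plus).
Col6a1: cctctcctgatCCCTCCCCtctttgcacct
Col1a2: ccccctcggctCCCTCCCCtgctcccccgc
A match of letters is a description of the window and not a binding site.

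Col4a1, the most abundant collagen transcript per length in these tumors, was at 144, 158, 159, 149 and 151 RPKM in controls 1 to 5. In Glut1-KO libraries 1 to 5 it was at 262, 233, 196, 181 and 230 RPKM. The controls lay close together, the Glut1-KO libraries spread more widely, and each of the latter exceeded each control. Means were 152 ± 6.22 RPKM in controls and 220 ± 32.4 in Glut1-KO (SD, n = 5 each), a log2 difference of 0.52 (SE 0.12). In limma the unadjusted p was 0.00135 and the adjusted p 0.351, while the exact permutation test gave p = 0.00794, the smallest that 5 against 5 libraries allow. Any gene whose groups do not overlap gets this exact p, so it adds nothing to that separation. By level per length the gene ranked 282 among 15761 tested genes of known length.

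Col4a2, its partner chain, showed the same order of groups at a lower level. It was at 81.6, 77.1, 91.2, 80.0 and 78.3 RPKM in controls and at 126, 112, 96.6, 93.8 and 123 RPKM in Glut1-KO. No Glut1-KO library fell within the control range, although the gap between 91.2 and 93.8 RPKM was narrow. Means were 81.6 ± 5.6 and 110 ± 14.8 RPKM (SD, n = 5 each), a log2 difference of 0.42 (SE 0.12; limma unadjusted p = 0.00399, adjusted p = 0.419; exact permutation p = 0.00794).

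The 2 male Glut1-KO libraries, which share a name number, were at 181 and 230 RPKM of Col4a1 and 93.8 and 123 RPKM of Col4a2. They lay above the 5 male controls for both genes. This follows from the separation of all libraries and is no further test, and among males alone 17.1% of all tested genes had groups that did not overlap. The log2 differences among males were 0.42 for Col4a1 and 0.40 for Col4a2, and a fit with sex as a covariate gives the same values, since no control was female. The separation was lost when libraries were scaled by their totals alone: Col4a1 then ran from 138 to 171 RPKM in controls and from 167 to 262 in Glut1-KO, and Col4a2 from 77.2 to 89.8 and from 86.8 to 126, with log2 differences of 0.51 and 0.42. When libraries with the same name number were summed, Col4a1 was at 148 to 154 RPKM in the 2 control numbers and 198 to 263 in the 4 Glut1-KO numbers, and Col4a2 at 77.1 to 85.6 and 97.8 to 126, where 15.1% of all tested genes did not overlap. DESeq2, in contrast to limma, called both (adjusted p = 0.00246 and 0.0232), whereas over the other alternatives the adjusted p ran from 0.166 to 0.624 for Col4a1 and from 0.227 to 0.702 for Col4a2; on simulated data of this design it recovered 59% of genes changed by 1 on the log2 scale where limma recovered 38%, and it made 42 false calls where limma made 6.

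The ratio of the partner chains was steady. Within a library, Col4a1 was 1.74 to 2.08 times as abundant as Col4a2 per length, 1.87 ± 0.124 in controls and 2.00 ± 0.0959 in Glut1-KO (SD, n = 5 each). Together the pair made up 43.2% to 51.8% of all collagen RPKM in controls and 49.6% to 57.7% in Glut1-KO, and these ranges overlapped.

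**Figure D1:**
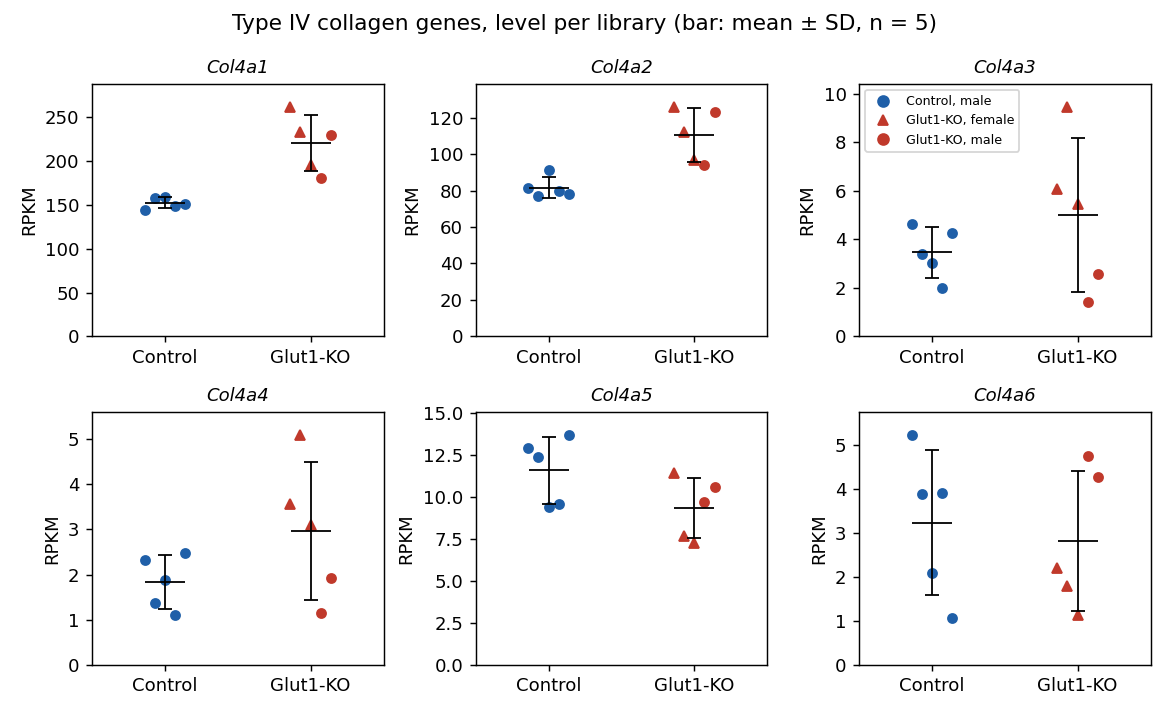
RPKM of the 6 type IV collagen genes (vertical axes, from 0) in 5 Control and 5 Glut1-KO libraries, circles for males and triangles for females, with the mean and SD. Col4a1 and Col4a2 do not overlap between groups, Col4a3 and Col4a4 are above all controls in the 3 female Glut1-KO libraries alone, and Col4a5 and Col4a6 overlap.

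The restricted type IV chains did not follow the major pair. Col4a3, the chain that carries the Goodpasture antigen and is altered in Alport syndrome, was at 4.64, 3.42, 3.02, 2.00 and 4.28 RPKM in controls and at 6.08, 9.48, 5.48, 1.42 and 2.58 RPKM in Glut1-KO. The 3 female Glut1-KO libraries were above every control and the male ones were below the control mean. Its log2 difference over all libraries was 0.33 (SE 0.46; limma adjusted p = 0.884), and it was 0.03 without Glut1-KO 2 and 0.68 without Glut1-KO 4. Col4a4, its head-to-head neighbor, was at 2.33, 1.36, 1.87, 1.11 and 2.48 RPKM in controls and at 3.57, 5.10, 3.11, 1.14 and 1.92 RPKM in Glut1-KO. Here too the female libraries lay above the control range and the male ones within it (log2 difference 0.62, SE 0.39, limma adjusted p = 0.744). Among males alone the estimates turned to -0.76 for Col4a3 and -0.20 for Col4a4. No control was female, so sex and Glut1 status cannot be told apart in the female libraries.

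The stretch between these neighbors is shown because both genes had their 2 highest and their 2 lowest values in the same libraries. Col4a4 starts at 82586849 of chromosome 1 on the minus strand and Col4a3 at 82586921 on the plus strand, and the 71 bases between them (chr1:82586850-82586920, plus strand, RefSeq table, GRCm38.p6) hold none of the letters in capitals above.
Between Col4a3 and Col4a4: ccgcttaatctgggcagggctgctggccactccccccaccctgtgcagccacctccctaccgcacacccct
The ratio of Col4a3 to Col4a4 within a library ran from 1.25 to 2.50, while the level of Col4a3 ranged 6.67-fold and that of Col4a4 4.57-fold. Both were highest in Glut1-KO 2 and next in Glut1-KO 1, and Glut1-KO 4 and control 4 held their lowest values. Of the exon bases of Col4a3, 5.6% overlap an antisense gene, and the strand setting of the counting is not given in the sources used here.

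Col4a5, an X-linked chain, was at 12.9, 12.4, 9.37, 9.57 and 13.7 RPKM in controls and at 11.4, 7.70, 7.26, 9.71 and 10.6 RPKM in Glut1-KO. The groups overlapped, with 2 female Glut1-KO libraries below the control range (log2 difference -0.32, SE 0.17; limma unadjusted p = 0.0797, adjusted p = 0.687). Its neighbor Col4a6 was at 5.23, 3.88, 2.09, 3.90 and 1.06 RPKM in controls and at 2.20, 1.78, 1.12, 4.74 and 4.26 RPKM in Glut1-KO. The female Glut1-KO libraries were low and the male ones high, inside the control range (log2 difference -0.23, SE 0.49; limma adjusted p = 0.927). This pair, whose starts lie 1308 bases apart, did not keep its ratio: Col4a5 was 2.05 to 12.9 times as abundant as Col4a6.

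Summed over the 6 genes, the type IV level was 251, 256, 267, 246 and 251 RPKM in controls and 411, 369, 309, 291 and 373 RPKM in Glut1-KO, or 254 ± 7.88 and 351 ± 49.4 (SD, n = 5 each). As a description of a chosen list this sum carries no test, and it is set mainly by Col4a1 and Col4a2. Endothelial cells are a known source of these chains. All 12 tested endothelial markers had estimates above 0 (median log2 difference 0.64), with a summed level of 153 to 540 CPM in controls and 256 to 710 CPM in Glut1-KO. Only 1 of these markers was higher at an unadjusted p below 0.05 (3.66% of all tested genes), with a lowest adjusted p of 0.643 in limma. The groups overlapped for each of them. Pecam1, one of them, was at 60.4, 22.5, 89.5, 45.8 and 35.8 CPM in controls and at 89.7, 124, 51.8, 32.1 and 55.0 CPM in Glut1-KO. Of 11 tested markers of smooth muscle and pericytes 7 were above 0 (44.6 to 92.1 CPM summed in controls, 53.4 to 127 in Glut1-KO), and of 11 tested leukocyte markers 9 (1100 to 11500 and 2190 to 8070 CPM). Of the leukocyte markers 5 were higher in Glut1-KO at an unadjusted p below 0.05 (3.66% of all tested genes) and 4 did not overlap between groups (0.798% of all), among them Ptprc, with a lowest adjusted p of 0.23 in limma. The part of these cells in the Col4a1 and Col4a2 difference was not tested.

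**Figure D2:**
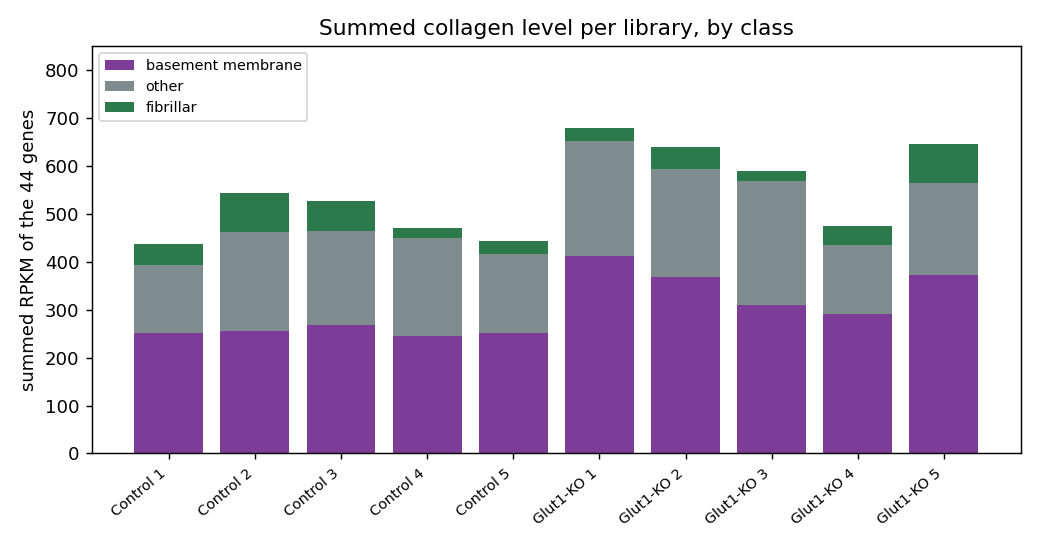
Summed RPKM of the 44 collagen genes per library (vertical axis), stacked by class. The type IV share of the bars is between 246 and 267 RPKM in controls and between 291 and 411 in Glut1-KO, whereas the fibrillar share runs from 20.2 to 81.3 RPKM across both groups.

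The multiplexins, collagens of the basement membrane zone, came next in abundance. Col18a1, the source of the fragment endostatin, was at 51.6, 119, 108, 108 and 51.3 RPKM in controls and at 80.9, 126, 147, 97.4 and 102 RPKM in Glut1-KO. Controls stood either at 51.3 and 51.6 or at 108 to 119 RPKM, and 3 of the 5 Glut1-KO libraries fell between or within these values (log2 difference 0.40, SE 0.28; limma adjusted p = 0.762). Col15a1, its relative, was at 22, 47.6, 19.8, 69.8 and 24.1 RPKM in controls and at 63.0, 25.6, 8.36, 20.9 and 43.2 RPKM in Glut1-KO. Glut1-KO 3 lay below every control and the other Glut1-KO libraries within the control range (log2 difference -0.30, SE 0.53; limma adjusted p = 0.909), and the sign of this estimate turned without Glut1-KO 3 (0.11). The 2 genes varied apart, Col15a1 being 0.0569 to 0.779 times as abundant as Col18a1 within a library.

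The beaded-filament collagen VI links basement membranes to the fibers beneath them. Col6a1 was at 31.1, 11.9, 36.7, 7.94 and 55.4 RPKM in controls and at 62.8, 38.9, 60.8, 9.28 and 21.6 RPKM in Glut1-KO. Values near 10 and near 60 occurred in both groups, and among Glut1-KO the female libraries were high and the male ones low (log2 difference 0.47, SE 0.63; limma adjusted p = 0.883; 0.09 without control 4 and 0.90 without Glut1-KO 4). Col6a2, which lies beside it on chromosome 10, was at 7.90, 4.33, 8.40, 2.39 and 15.4 RPKM in controls and at 19.3, 13, 25.6, 2.99 and 8.57 RPKM in Glut1-KO. It had the same sex order within Glut1-KO (log2 difference 0.82, SE 0.61; limma adjusted p = 0.773), and among males the estimates were -0.65 for Col6a1 and -0.26 for Col6a2. The ratio of Col6a1 to Col6a2 ran from 2.37 to 4.37 while the single levels ranged 7.91-fold and 10.7-fold. Col6a3, which encodes the long chain of the same molecule from chromosome 1, followed neither: it ranged from 1.53 to 6.67 RPKM (log2 difference 0.01, SE 0.40), and Col6a1 was 2.31 to 26.2 times as abundant. Col6a6 had a level of 0.983 RPKM in control 2 and 0 to 0.204 elsewhere, and Col6a4 and Col6a5 had at most 7 and 9 counts in any library.

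Fibrillar collagens were scarce beside type IV and did not differ between the groups beyond their spread. Of 11 genes 9 were tested, 1 with an estimate above 0 and 8 below, at a median log2 difference of -0.25 and a lowest adjusted p of 0.745 in limma. Col3a1, the collagen of fine reticular fibers, was at 11.7, 18.1, 19.7, 4.21 and 7.09 RPKM in controls and at 7.04, 12, 2.33, 12.6 and 26.2 RPKM in Glut1-KO. Lowest and highest values were both in the Glut1-KO group, in libraries 3 and 5 (log2 difference -0.20, SE 0.62; limma adjusted p = 0.956). Col1a2, a chain of type I collagen, was at 12.5, 22.5, 15.5, 4.53 and 5.73 RPKM in controls and at 7.12, 10.7, 2.68, 10 and 22.8 RPKM in Glut1-KO. Here too libraries 3 and 5 of Glut1-KO held the lowest and the highest value (log2 difference -0.27, SE 0.58; limma adjusted p = 0.928). Col1a1, the partner chain, averaged 10.1 ± 6.48 and 9.03 ± 6.4 RPKM (SD, n = 5 each; log2 difference -0.21, SE 0.56). The directions of Col3a1 and Col1a2 were not stable, since both estimates turned among males alone, to 0.80 and 0.56.

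Col1a1, Col1a2, Col3a1, Col5a1 and Col5a2, chains of types I, III and V, varied together across libraries rather than with the group. Col1a1 ranged 7.59-fold and Col1a2 8.51-fold over the 10 libraries, whereas their ratio stayed between 0.726 and 0.965, a range of 1.33-fold. Col1a1 over Col3a1 stayed between 0.617 and 1.11, and Col5a1 over Col5a2, the chains of the type V collagen that nucleates type I fibers, between 0.325 and 0.494. Glut1-KO 3 held the lowest value of Col1a1, Col1a2, Col3a1, Col5a1 and Col5a2, with control 4 next, and of all 30 tested collagen genes 10 were lowest in Glut1-KO 3. Of 15 tested fibroblast markers 5 were above 0 and 10 below, with summed levels of 91.9 to 149 CPM in controls and 57.8 to 120 CPM in Glut1-KO, and their part in the spread was not tested. Col27a1 and Col5a3 also had estimates below 0 (-0.27 and -0.25), at 1.92 to 9.18 and 0.496 to 1.88 RPKM. Their order of libraries differed, and Col27a1 had its highest value in Glut1-KO 3. Col5a3, although also a type V chain, was highest in control 3 and lowest in Glut1-KO 4. Col11a2, a cartilage-type chain, had the smallest fibrillar p: it was at 0.339, 1.33, 0.425, 0.639 and 1.30 RPKM in controls and at 0.551, 0.216, 0.319, 0.401 and 0.809 RPKM in Glut1-KO, with overlapping groups (log2 difference -0.77, SE 0.48; limma unadjusted p = 0.141, adjusted p = 0.745). Col24a1, with 2 to 30 counts, was the fibrillar gene above 0 (0.53, SE 0.60).

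**Figure D3:**
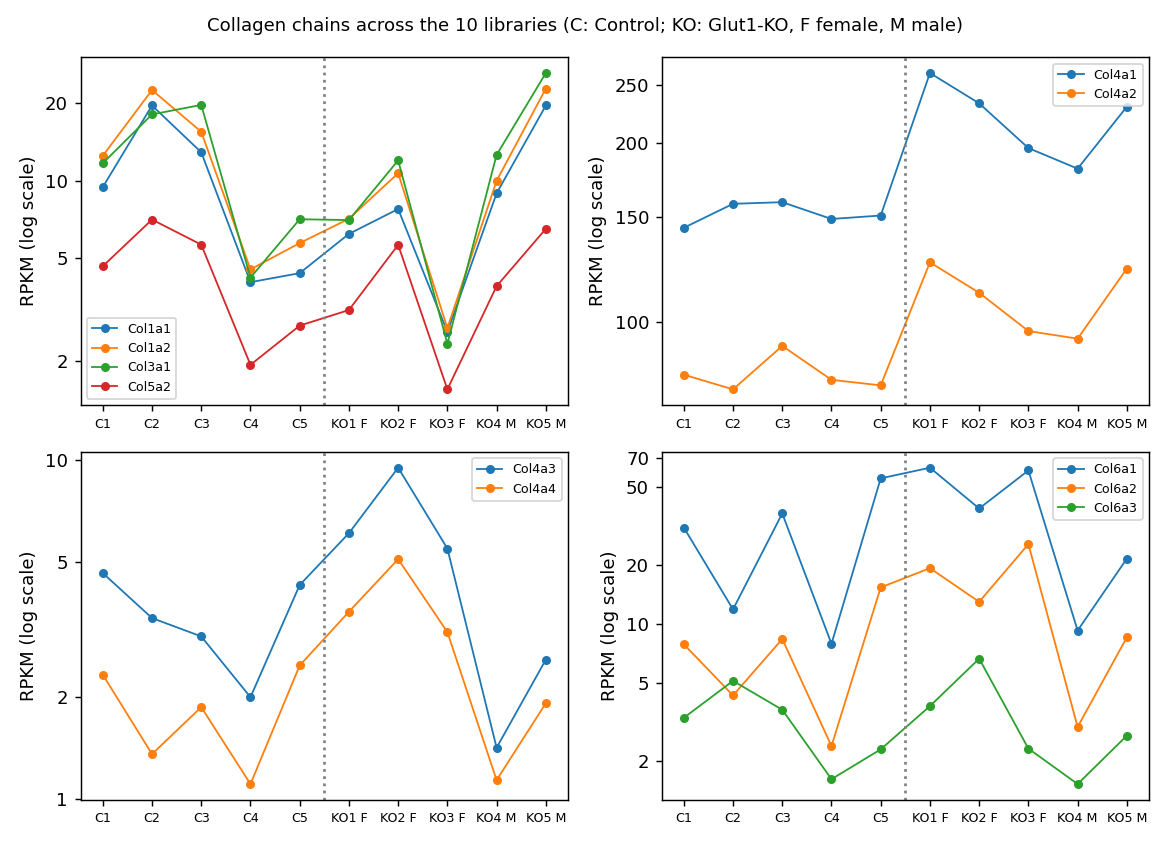
RPKM on log axes of chains that share a molecule or a locus, for each of the 10 libraries; lines only join the points of a gene, since libraries have no order. Col1a1, Col1a2, Col3a1 and Col5a2 move in parallel with their lowest values in Glut1-KO 3, the ratios of Col4a3 to Col4a4 and of Col6a1 to Col6a2 range from 1.25 to 2.50 and from 2.37 to 4.37, and Col6a3 departs from the other type VI chains.

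Among the remaining classes, Col7a1, which forms the anchoring fibrils below stratified epithelia, had the smallest p of the genes below 0. It was at 1.69, 1.04, 2.18, 0.498 and 0.792 RPKM in controls and at 0.384, 0.506, 0.918, 0.716 and 0.707 RPKM in Glut1-KO. The low Glut1-KO values overlapped the lower controls (log2 difference -0.81, SE 0.41; limma unadjusted p = 0.0761, adjusted p = 0.686). Of the 4 tested fibril-associated genes, Col12a1, Col14a1 and Col16a1 were below 0 (-0.55, -0.18 and -0.48) and Col20a1 above it (0.23). The short-chain network genes Col8a1, Col8a2 and Col10a1 had estimates of -0.26, -1.08 and -1.08 with SEs of 0.40, 1.06 and 0.80, and the transmembrane Col23a1 was at 0.361 to 4.24 RPKM (-0.20, SE 0.79).

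**Figure D4:**
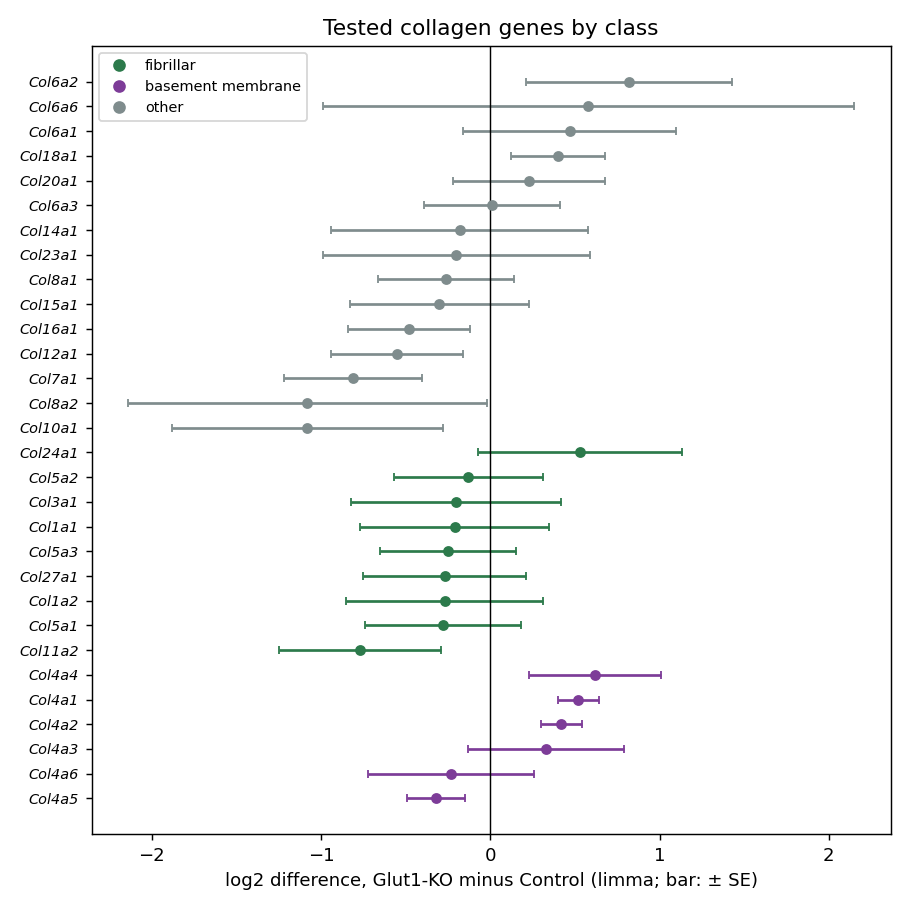
Log2 difference between Glut1-KO and Control (horizontal axis, limma estimate with SE, n = 5 each) for the 30 tested collagen genes, colored by class. Col4a1 at 0.52 and Col4a2 at 0.42 have SEs of 0.12, and most other genes have SEs several times wider.

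Col17a1, the transmembrane collagen of hemidesmosomes in basal epithelial cells, was found in a single library and was not tested. Control 1 held 2972 counts (13.5 RPKM), and the other 9 libraries held 0 to 6 counts, or at most 0.0265 RPKM. Markers of basal cells stood with it: Krt5 had 13680 counts in control 1 and 0 to 13 elsewhere, Krt14 had 3539 against 44 to 597 and Trp63 3565 against 29 to 408. Over the 5 basal markers the summed level was 541 CPM in control 1, 7.35 to 24 CPM in the other controls and 4.74 to 22.1 CPM in Glut1-KO. Their part in the Col17a1 value was not tested. Without control 1, the log2 differences of Col4a1 and Col4a2 were 0.50 and 0.42.

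**Figure D5:**
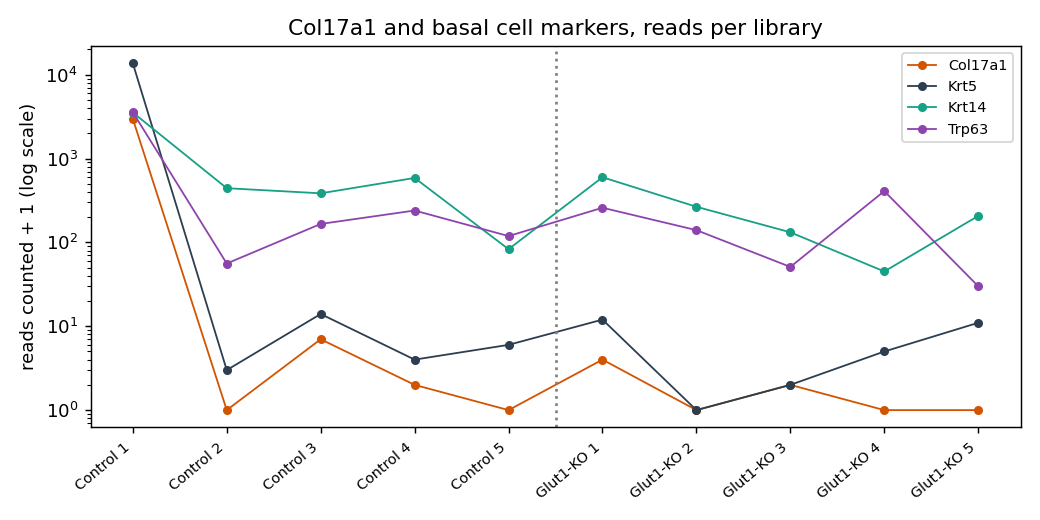
Counts plus 1 (log axis) of Col17a1 and of the basal cell markers Krt5, Krt14 and Trp63 in each library. Control 1 stands apart for all 4 genes, with 2972 counts of Col17a1, whereas every other library has at most 6.

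The other 13 untested genes were near or at the detection limit. Col9a3, Col13a1, Col11a1, Col25a1, Col26a1, Col28a1, Col9a1, Col9a2 and Col22a1 had at most 91 counts in any library, and Col19a1 had 0 counts in all. Col2a1, the cartilage collagen, had 1 to 12 counts. Its controls did not overlap with Glut1-KO at 0.0145 to 0.0581 against 0.00440 to 0.0133 RPKM, which was noticed in the values and not looked for. Without a filter, the groups did not overlap for 1.4% of 25552 genes, counting both directions.

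The proteins that make, cut, bind and control collagens were read from 6 lists of 120 genes, 110 of them tested, and none was called in limma at an adjusted p below 0.05 (DESeq2 called 4, namely Ctgf, Lamc1, Mmp10 and Mmp12, against 1.32% of all tested genes). At an unadjusted p below 0.05 there were 4 higher and 7 lower, against 3.66% and 4.02% of all tested genes, so the share with higher levels was near that of all genes. Of 30 tested genes for collagen processing, 17 were above 0 and 13 below. P4ha1, a prolyl hydroxylase that stabilizes the helix, was at 197 ± 17.5 CPM in controls and 191 ± 43.8 in Glut1-KO (SD, n = 5 each). The collagen chaperone Serpinh1, the lysyl hydroxylase Plod2 and the cross-linking enzyme Lox had log2 differences of 0.08, 0.69 and 0.21 (SE 0.24, 0.39 and 0.55). Leprel1, a prolyl 3-hydroxylase also named P3h2 that acts on type IV collagen, had the smallest p of the list: it was at 28.7, 23.4, 39.7, 25.2 and 26.1 CPM in controls and at 39.8, 39.9, 39.7, 52.9 and 33.8 CPM in Glut1-KO (log2 difference 0.54, SE 0.17; limma unadjusted p = 0.00798, adjusted p = 0.458). Only control 3 reached the Glut1-KO range.

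Among basement membrane partners, Lamc1, the laminin gamma chain of most basement membranes, did not overlap between groups (0.798% of all tested genes in the higher direction). It was at 190, 191, 211, 214 and 200 CPM in controls and at 249, 284, 273, 237 and 263 CPM in Glut1-KO (log2 difference 0.37, SE 0.09; limma unadjusted p = 0.00184, adjusted p = 0.363; exact permutation p = 0.00794). Of the 18 genes of this list 11 were above 0 and 7 below, with 2 higher (Lamc1 and Lamb3) and 1 lower (Agrn) at an unadjusted p below 0.05, against 3.66% and 4.02% of all tested genes. For degradation, of 19 tested genes 8 were above and 11 below 0, with 1 higher and 3 lower at an unadjusted p below 0.05 (3.66% and 4.02% of all tested genes). The 3 lower ones were the stromelysins Mmp10 and Mmp3 and the protease Ctsl, with log2 differences of -2.39, -1.90 and -0.44 (SE 0.88, 0.81 and 0.19; limma adjusted p = 0.567, 0.628 and 0.644), and the collagenase Mmp13 was at -1.44 (SE 0.68). Mmp12, the macrophage metalloelastase, was at 3.29, 3.16, 4.22, 4.43 and 3.09 CPM in controls and at 12.1, 10.9, 5.57, 8.65 and 3.62 CPM in Glut1-KO (log2 difference 1.04, SE 0.35; limma adjusted p = 0.52; 0.59 among males), beside the leukocyte markers given above, and their part in it was not tested. The membrane collagenase Mmp14 had a log2 difference of 0.20 (SE 0.23).

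Of 9 tested collagen receptors 3 were above and 6 below 0. The kinase Ddr1 and the integrin chain Itga2 had log2 differences of -0.04 and -0.57 (SE 0.17 and 0.32), and the leukocyte receptor Lair1 0.86 (SE 0.39; limma adjusted p = 0.656), which was 0.19 among males alone and 1.29 for the female Glut1-KO libraries against controls. Of 15 tested fibril-associated genes 6 were above and 9 below 0, with the smallest p for Thbs1 (log2 difference -0.55, SE 0.27; limma adjusted p = 0.677). Of the 19 genes of the TGF-beta pathway, a known inducer of fibrillar collagens, 3 were above and 16 below 0. At an unadjusted p below 0.05 there were 3 lower (Ctgf, Smad3 and Tgif1; 4.02% of all tested genes) and 0 higher (3.66%), and Tgif1 did not overlap between groups (1.06% of all in the lower direction). Ctgf, a target of that pathway, was at 138, 136, 134, 73.8 and 59.7 CPM in controls and at 29.3, 36.4, 25.7, 62.8 and 62.1 CPM in Glut1-KO. The female Glut1-KO libraries were lowest, and the male ones overlapped the lowest controls (log2 difference -1.35, SE 0.33; limma unadjusted p = 0.00175, adjusted p = 0.363). The estimate was -0.71 among males alone and -1.76 for the female Glut1-KO libraries against controls. Ctgf is also an early-response gene. In a list of 16 genes induced by tissue dissociation 15 were below 0 (median log2 difference -0.32), 6 of them at an unadjusted p below 0.05 (4.02% of all tested genes) and 3, Jun, Atf3 and Dusp1, without overlap between groups (1.06% of all), with a lowest adjusted p of 0.23 in limma, and their part in the Ctgf difference was not tested.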

How the data were processed

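The authors deposited gene counts made, per the labels and processing notes, from stranded polyadenylated RNA libraries with cutadapt 1.4.2, HISAT2 (mm10) and featureCounts 1.4.4; the annotation release and strand setting are not given in the sources used here. A deposited normalized table was not used. Counts of 39017 genes in 10 libraries (35250991 to 49760462 counts) were filtered with filterByExpr (minimum count 10, total 15), scaled by TMM (edgeR 4.0.16) and fitted with voom and limma 3.58.1 by group, with Benjamini-Hochberg adjustment over 15922 genes and a threshold of 0.05. Exact permutation tests were 2-sided, on log2(CPM + 0.5). RPKM used the longest coding transcript of GENCODE M21, in which 96.4% of genes were found. On simulated independent libraries without sex or name numbers (15922 genes), limma recovered 38% of genes changed by 1 on the log2 scale. It recovered 73% of genes changed by 2. Members, lists and tests were chosen with earlier results of these data known. Named were the 8 most abundant members, the 3 smallest p in each direction, type IV, Col17a1, 7 fixed pathway genes and the smallest p per list; other genes were named after their values were seen. Alternatives were DESeq2 1.42.0, edgeR's quasi-likelihood test, other scalings and filters, sex, replicate block, name numbers and leaving out each library.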

Additional observations from a re-analysis of the deposited data

Results flagged for a closer look

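Over 96 groups of 5 values, 2 held a library far from the rest of its group, where chance gives about 1 in 20. Col17a1 was at 13.5 RPKM in control 1 and at most 0.0265 in the other controls. Col6a6 was at 0.983 RPKM in control 2 and 0 to 0.154 in the other controls.

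For 7 of 30 tested collagen genes, all 3 female Glut1-KO libraries lay on one side of the control mean and both male ones on the other. The difference was not tested, since no control was female, and the count is given without a share over all tested genes. Female means were 54.2 RPKM for Col6a1 (male libraries 9.28 to 21.6), 7.01 for Col4a3 (1.42 to 2.58) and 0.0697 for Col24a1 (0.0172 to 0.0285), all higher than in males. They were 7.13 RPKM for Col3a1 (male libraries 12.6 to 26.2), 1.70 for Col4a6 (4.26 to 4.74), 1.45 for Col8a1 (2.96 to 4.01) and 0.803 for Col20a1 (2.25 to 3.14), all lower than in males.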

How the results depend on the processing

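Col4a1 and Col4a2 were higher in Glut1-KO under each alternative run, and limma and edgeR called no collagen gene. DESeq2 called 2 collagen genes (4 at an unadjusted p below 0.05, against 10.8% of all genes) and 4 pathway genes. The count at an unadjusted p below 0.05, 2 as reported against 7.68% of all genes, was 3 with edgeR (8.85%), 4 without a filter (6.83%), 4 among males (9.28%), 5 for female Glut1-KO libraries against controls (13.8%), 5 with summed name numbers (7.13%), and 2 to 4 on leaving out each library, the 4 without Glut1-KO 4, where Col4a4 and Col6a2 joined. With the replicate block it was 5, against 7.26% (Col16a1, Col4a5 and Col7a1 joined). This block joins a Control and a Glut1-KO library by the replicate number in their titles, which is not the name number. Libraries with the same replicate number correlated at -0.115 to 0.251, and only those of replicate 4 correlated best with each other. These few values cannot decide whether the replicate numbers are a pairing, and the reported fit did not use them as one. Non-overlapping collagen genes, 2 as reported against 1.85% of all genes, were 0 with library totals (1.75%) and 3 without a filter (1.4%). They were 5 of 34 among males (17.1%), 4 of 31 for female Glut1-KO libraries (9.51%), 6 of 35 with summed name numbers (15.1%) and 2 to 3 on leaving out each library.

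With sex as a covariate and among males alone, log2 differences turned to -0.65 for Col6a1, 0.80 for Col3a1, 0.56 for Col1a2, -0.20 for Col4a4, -0.76 for Col4a3, 0.66 for Col4a6, 0.20 for P4ha1, -0.05 for Mmp14, 0.18 for Ddr1 and 0.11 for Itga2, and to -0.27 and -0.26 for Col6a2. Lox turned to -0.27 for female Glut1-KO libraries and -0.01 with summed name numbers. Estimates that turned without a library ranged from -0.59 to 0.30 for Col3a1, -0.63 to 0.16 for Col1a2, -0.62 to 0.11 for Col15a1, -0.58 to 0.06 for Col4a6, -0.15 to 0.08 for P4ha1, -0.08 to 0.57 for Lox, -0.11 to 0.23 for Serpinh1 and -0.12 to 0.10 for Ddr1. Others kept their sign but ranged from 0.24 to 0.53 for Col18a1, 0.48 to 1.27 for Col6a2, 0.39 to 0.89 for Col4a4, -1.02 to -0.50 for Col11a2, 0.09 to 0.34 for Mmp14, 0.44 to 0.97 for Plod2 and -0.70 to -0.36 for Thbs1. The cause was not tested. A summed-exon gene length, chosen after seeing the data, gave a Glut1-KO over Control ratio of 1.38 for the type IV sum. The 13 untested genes other than Col17a1 had too few counts to compare.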
